A study of Homo sapiens with 8 samples.

Results

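The AKR1 genes encode aldo-keto reductases, and all 10 named genes of the human family were followed: AKR1A1, AKR1B1, AKR1B10, AKR1B15, AKR1C1, AKR1C2, AKR1C3, AKR1C4, AKR1D1 and AKR1E2. They were taken by gene symbol, 10 of 63677 genes in the table. These symbols occur on 14 rows, and the 4 extra rows, second entries of AKR1C1 to AKR1C4, held 0 reads in every library, so 1 row stands for each gene. The family was chosen by measured values: the fall of AKR1C2 from shNT to shSRC1 libraries, the same contrast described here, was already known from these data. Differences of its members between the groups are therefore given as a description, with a standard error (SE) and no test.

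RNA came from LY2 cells, a breast cancer line derived from MCF-7 that is resistant to endocrine therapy. The control group, shNT, stably carried a non-targeting short hairpin RNA, and the other group, shSRC1, a hairpin against NCOA1, the gene of the nuclear receptor coactivator SRC-1. Each group held 4 libraries. Both groups were grown in stripped serum with 4-hydroxytamoxifen, the active metabolite of tamoxifen, at 1e-08 mol/L and with puromycin at 500 ng/mL, were then deprived of steroids for 72 h, and received 4-hydroxytamoxifen at 1e-07 mol/L for 8 h. Tamoxifen was thus present in the controls too, and no untreated group was analysed here. Whether each hairpin line was 1 clone or a pool is not given in the sources used here.

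Aldo-keto reductases use NADPH to reduce aldehydes and ketones to alcohols. The AKR1C enzymes act on steroids and prostaglandins and so set how much active hormone a cell holds, the AKR1B enzymes act on sugars and retinaldehyde, and AKR1D1 makes a step of bile acid synthesis. In breast tissue the AKR1C enzymes are known for the local turnover of progesterone, androgens and estrogens, and several AKR1 genes are known targets of NRF2, the transcription factor of the oxidant response.

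The 4 AKR1C genes are close copies, which bears on how reads are assigned to each. The first 90 coding bases of each, from GENCODE 29, are shown because they make that likeness visible. Capitals mark bases that differ from AKR1C2 at the same position.
AKR1C2: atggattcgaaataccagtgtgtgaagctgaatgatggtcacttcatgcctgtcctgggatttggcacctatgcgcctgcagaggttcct
AKR1C1: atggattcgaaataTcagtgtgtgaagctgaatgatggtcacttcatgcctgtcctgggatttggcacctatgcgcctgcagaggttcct
AKR1C3: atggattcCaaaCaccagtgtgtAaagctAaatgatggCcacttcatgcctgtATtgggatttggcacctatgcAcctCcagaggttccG
AKR1C4: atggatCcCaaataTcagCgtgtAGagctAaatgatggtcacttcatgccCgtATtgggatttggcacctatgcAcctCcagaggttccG

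AKR1C1 differed from AKR1C2 at 1 of these 90 bases, AKR1C3 at 10 and AKR1C4 at 13. Over the whole coding sequence of 969 bases, AKR1C2 was 98.0% identical to AKR1C1, 91.0% to AKR1C3 and 87.8% to AKR1C4. Of the 870 stretches of 100 bases in the AKR1C2 coding sequence, 26.4% also occurred in a transcript of another AKR1C gene, against 20.7% for AKR1C1, 9.77% for AKR1C3 and 0.690% for AKR1C4. With stretches of 50 bases these shares were 57.1%, 53.7%, 23.0% and 12.2%. Neither the read length nor the handling of reads that match several genes is given in the sources used here. The separate values of AKR1C1, AKR1C2 and AKR1C3 are therefore uncertain, and their sum is given as well.

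The bases upstream of the AKR1C starts are shown because the 3 expressed genes were lower together. They are the 250 bases before each RefSeq start on GRCh38.p14, which is not the GRCh37 build of the deposited table. Capitals mark a CCAAT box, which reads ATTGG where it lies on the opposite strand.
AKR1C1, chr10:4963165-4963414, plus strand: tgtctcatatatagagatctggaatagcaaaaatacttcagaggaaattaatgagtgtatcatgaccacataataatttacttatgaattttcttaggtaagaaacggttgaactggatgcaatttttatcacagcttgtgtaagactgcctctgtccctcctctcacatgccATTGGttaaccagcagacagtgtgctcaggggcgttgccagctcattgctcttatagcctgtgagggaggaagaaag
AKR1C2, chr10:5003858-5004107, minus strand: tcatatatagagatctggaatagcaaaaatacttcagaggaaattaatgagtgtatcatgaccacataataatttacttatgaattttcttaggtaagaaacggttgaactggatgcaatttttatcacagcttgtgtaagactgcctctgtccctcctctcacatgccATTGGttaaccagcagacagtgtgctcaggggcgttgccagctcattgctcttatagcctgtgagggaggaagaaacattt
AKR1C3 upstream start, chr10:5048531-5048780, plus strand: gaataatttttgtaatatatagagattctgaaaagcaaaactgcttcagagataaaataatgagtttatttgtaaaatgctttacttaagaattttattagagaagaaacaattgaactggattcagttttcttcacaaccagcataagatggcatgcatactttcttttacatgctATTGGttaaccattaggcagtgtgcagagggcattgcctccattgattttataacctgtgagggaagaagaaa
AKR1C3 downstream start, chr10:5094164-5094413, plus strand: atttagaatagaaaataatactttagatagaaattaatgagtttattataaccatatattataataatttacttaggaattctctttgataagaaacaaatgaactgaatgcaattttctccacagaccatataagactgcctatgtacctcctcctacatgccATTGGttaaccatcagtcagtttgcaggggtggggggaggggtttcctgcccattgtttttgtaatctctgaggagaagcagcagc
AKR1C4, chr10:5196587-5196836, plus strand: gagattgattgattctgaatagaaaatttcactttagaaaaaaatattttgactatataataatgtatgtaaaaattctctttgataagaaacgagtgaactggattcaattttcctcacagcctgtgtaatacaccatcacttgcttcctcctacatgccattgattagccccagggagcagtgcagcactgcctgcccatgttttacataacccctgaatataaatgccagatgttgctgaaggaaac

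The AKR1C1 and AKR1C2 windows were 96.5% identical over 254 aligned positions. AKR1C2 matched the AKR1C3 windows at 69.6% and 69.8% of positions and AKR1C4 at 60.0%. AKR1C1, AKR1C2 and AKR1C3 each held a CCAAT box, and AKR1C4 held none. The box is not particular to these genes, since AKR1B1 and AKR1E2 also had windows with it. It was found in 7 of the 11 AKR1 windows and in 32.0% of the 35116 windows in the RefSeq table. AKR1C4 held the letters of a TATA box (TATAAA). The upstream AKR1C3 window held them on the opposite strand only, where they read TTTATA. Counting both strands, they were found in 10.7% of all windows. Promoter windows were found for 8 members, 11 windows in all, and AKR1B10 and AKR1B15 had none. None of the 11 held the core of the antioxidant response element (TGACNNNGC, in 10.9% of all windows), an AP-1 site (TGANTCA, 6.57%), a perfect estrogen response element (0.0399%) or a perfect androgen and glucocorticoid response element (0.00285%), searched on both strands. A CCAAT or AP-1 match may overlap another motif, and a match is a description of letters only.

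Values are normalized reads, that is, the reads assigned to a gene after division by a scaling factor for each library. Libraries held 58459196 to 67022036 reads in shNT and 65321247 to 66248960 in shSRC1, except 33771775 in shSRC1 replicate 2. The labels do not say whether the replicates are separate cultures. The p-values therefore reflect only how far these libraries vary, and that variation may be technical. Every pair of replicates differed by more than sampling noise. The chi-square per gene, which counting error alone puts near 1, ran from 7.72 to 86.9 in shNT pairs, and the 3 highest of these involved shNT replicate 3. In shSRC1 it was 6.50 for replicates 3 and 4 and 23.1 to 45.7 for the other pairs. The hairpin target NCOA1 stood at 4396 ± 137 in shNT and 2036 ± 151 in shSRC1 (mean ± SD, n = 4 each), and its log2 fold change was -1.11 (SE 0.08, limma adjusted p = 2.25e-07). All 8 markers of luminal epithelium were present, and 3 were higher in shSRC1, the keratins KRT8, KRT18 and KRT19. That share was 37.5%, beside 23.2% of all tested genes past a limma adjusted p of 0.05 in either direction. The summed level of the 8 markers ran from 340040 to 416530 in shNT and from 513850 to 583250 in shSRC1. Of 14 markers of leukocytes, fibroblasts, endothelium and liver, 6 passed the filter on low values and 2 of these (33.3%), APOA1 and SERPINA1, were higher. The other 4 did not pass the test, among them COL1A1 (means 1810 in shNT and 1552 in shSRC1) and VWF (248 and 237). The sum of these 14 ran from 2702 to 3150 in shNT and from 3056 to 3685 in shSRC1, and PECAM1 had 0 reads in every library. The part of these differences in the results below was not tested. In bulk RNA, fewer cells of a type and less RNA per cell cannot be told apart.

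AKR1C2 was the most abundant member in shNT cells and lower by 8.04-fold in shSRC1 cells. AKR1C2 reduces dihydrotestosterone to a weak androgen. Its 4 shNT libraries held 7083, 8626, 6051 and 8393 normalized reads and its shSRC1 libraries 1016, 987, 812 and 910.0 (replicates 1 to 4). The lowest shNT library stood far above the highest shSRC1 library, and within shSRC1 the values lay close together. The means were 7538 ± 1202 and 931 ± 91 (SD, n = 4 each), and the log2 fold change was -3.01 (SE 0.11). Fold changes here are on the log2(value + 1) scale of the fit across all genes.

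AKR1C1, which inactivates progesterone, was lower by 4.37-fold. It held 1179, 1311, 1275 and 1196 normalized reads in the shNT libraries and 416, 453, 192 and 176 in the shSRC1 libraries. The shNT values were close to each other, while in shSRC1 replicates 1 and 2 were well above replicates 3 and 4. The log2 fold change was -2.13 (SE 0.32).

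AKR1C3, which makes testosterone from androstenedione and also produces a prostaglandin F, was lower by 5.42-fold. Its shNT libraries held 688, 908, 561 and 849.5 normalized reads and its shSRC1 libraries 186, 169.7, 96.3 and 111. The groups did not overlap, and replicates 1 and 2 of shSRC1 again lay above replicates 3 and 4. The log2 fold change was -2.44 (SE 0.21). AKR1C4, the form known from liver, had 3 reads summed over shNT and 0 summed over shSRC1. Both lie at or under the floor of 3 reads, so no fold is given.

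The sum of AKR1C1, AKR1C2, AKR1C3 and AKR1C4, which does not depend on how assigned reads were split among them, was 6.94-fold lower. It was 8949, 10845, 7889 and 10439 normalized reads in shNT replicates 1 to 4 and 1618, 1610, 1101 and 1197 in shSRC1 replicates 1 to 4. Before normalization these sums were 8497 to 12205 reads in shNT and 920.0 to 1704 reads in shSRC1, the lowest in the shallow shSRC1 replicate 2. The group means were 9530.4 ± 1365 and 1381 ± 271 (SD, n = 4 each), with a log2 fold change of -2.80 (SE 0.14). If reads that match several of these genes were left out of the counts, they are missing from the sum too.

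**Figure D1:**
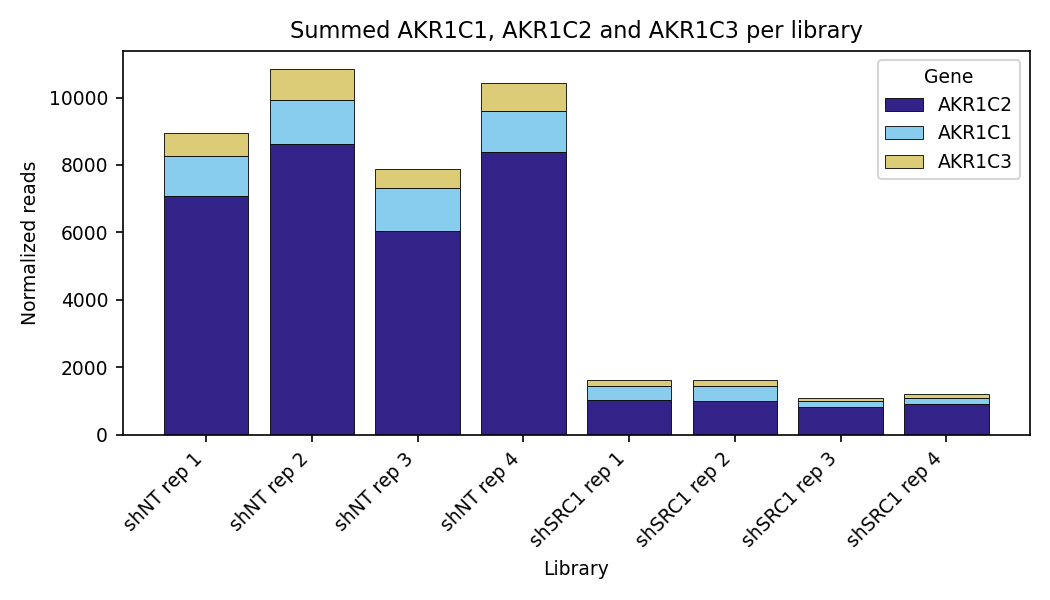
Stacked bars give the normalized reads of AKR1C2, AKR1C1 and AKR1C3 in each of the 8 libraries (x axis: library, y axis: normalized reads from 0). AKR1C2 is the largest part of every bar. With the few reads of AKR1C4, which is not drawn, the sums run from 7889 to 10845 in shNT and from 1101 to 1618 in shSRC1.

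The make-up of the sum also differed between libraries. AKR1C2 made up 79.1%, 79.5%, 76.7% and 80.4% of it in shNT replicates 1 to 4, and 62.8%, 61.3%, 73.8% and 76.0% in shSRC1 replicates 1 to 4. All 4 shSRC1 shares lay below the lowest shNT share, by a small margin in replicate 4 and a wide one in replicates 1 and 2. AKR1C1 made up 11.5% to 16.2% in shNT and 25.7%, 28.2%, 17.4% and 14.7% in shSRC1, so its ranges overlapped. AKR1C3 made up 7.11% to 8.37% in shNT and 8.75% to 11.5% in shSRC1. Because the copies share long stretches of sequence, these shares carry the same uncertainty as the separate values.

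AKR1B10, a reductase of retinaldehyde and other aldehydes, differed widely among the shSRC1 libraries. It held 57.5, 84.4, 53.8 and 74.5 normalized reads in shNT replicates 1 to 4, from 62, 95, 58 and 83 reads. The shSRC1 replicates held 50.3, 45.5, 10.0 and 0.916 normalized reads, from 53, 26, 11 and 1 reads. Replicates 1 and 2 thus lay just under the lowest shNT library, while replicates 3 and 4 lay far below it. The log2 fold change of -2.17 had an SE of 1.05 and was -1.18 without shSRC1 replicate 4.

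AKR1B15, a close copy of AKR1B10 (85.9% of aligned coding positions identical), held 9.28, 6.22, 11.1 and 7.18 normalized reads in shNT and 7.60, 8.75, 5.45 and 1.83 in shSRC1. The groups overlapped and the values rest on 37 and 21 reads per group. It did not pass the filter on low values, which kept genes reaching 10 normalized reads in 4 or more libraries. AKR1B1, aldose reductase, which turns glucose into sorbitol, was low in both groups, with 30.6, 19.5, 38.1 and 22.4 normalized reads in shNT and 22.8, 19.2, 26.4 and 14.7 in shSRC1. Its groups overlapped, and its log2 fold change was -0.38 (SE 0.30).

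AKR1A1, the broad aldehyde reductase that also acts on glucuronate, was abundant in every library, with 2453, 2656, 1936 and 2599.8 normalized reads in shNT and 3001, 2526, 2494 and 2708 in shSRC1. The groups overlapped, and the log2 fold change was 0.16 (SE 0.10). AKR1E2, a reductase of anhydrofructose, held 621, 678, 565 and 572 normalized reads in shNT and 506, 489.9, 473 and 549.8 in shSRC1. All shSRC1 values lay below all shNT values, by a margin that was small beside those of the AKR1C genes (log2 fold change -0.27, SE 0.10). AKR1D1, the steroid reductase of bile acid synthesis, had 3 reads in all shNT and 5 in all shSRC1 libraries.

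**Figure D2:**
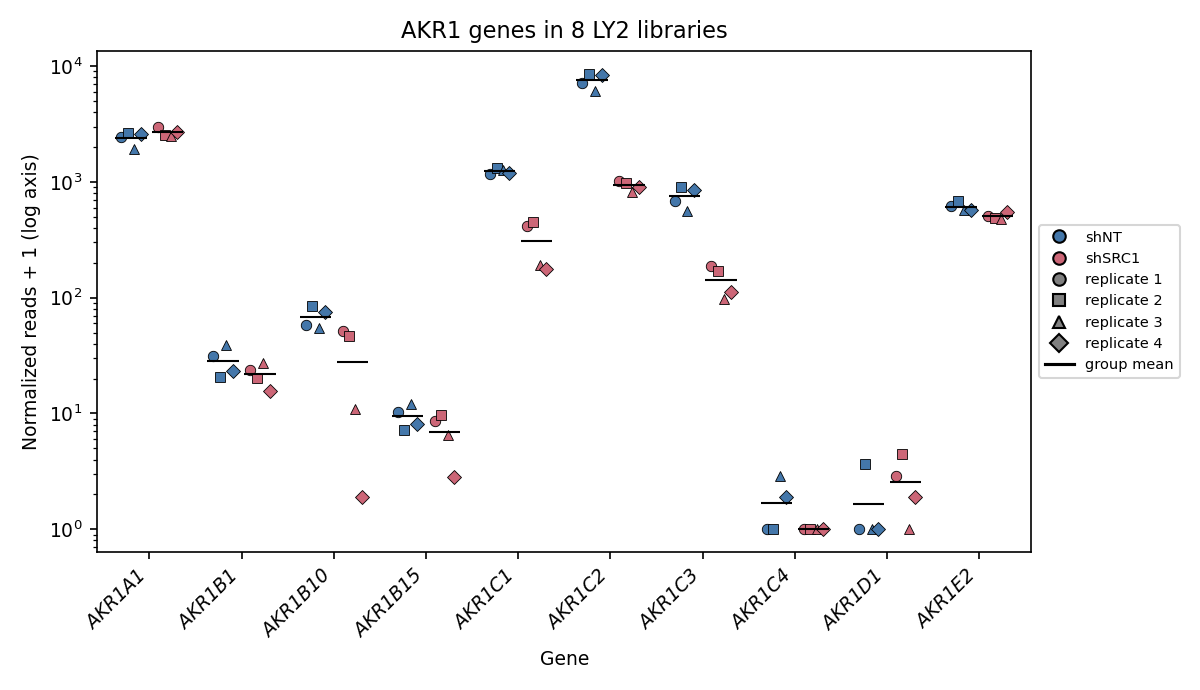
Each point is 1 library, placed by gene (x axis) and by normalized reads plus 1 (y axis, log scale), with shape for the replicate and a line at the group mean. AKR1C1, AKR1C2 and AKR1C3 separate by group, AKR1A1 and AKR1B1 do not, and the shSRC1 points of AKR1B10 run from 50.3 down to 0.916 normalized reads.

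In all, 7 of the 10 members passed the filter on low values, and AKR1B15, AKR1C4 and AKR1D1 did not. Of the 7, 3 passed an adjusted p of 0.05 in the limma fit across 19559 genes, all lower in shSRC1 (AKR1C1, AKR1C2 and AKR1C3), where 11.2% of all tested genes were lower by that rule. The groups did not overlap, with shSRC1 lower, for 5 members (these 3, AKR1B10 and AKR1E2), where 12.1% of tested genes were lower without overlap. Nothing is read from these counts, since the same contrast led to the choice of the family.

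Levels of different genes were compared per kilobase of coding sequence. In shNT cells the order was AKR1C2 (7779.5 ± 1240.1 normalized reads per coding kilobase, SD, n = 4), AKR1A1 (2473 ± 337), AKR1C1 (1279.6 ± 65.0), AKR1C3 (776 ± 163), AKR1E2 (635 ± 54.3), AKR1B10 (71.3 ± 15.2), AKR1B1 (29.2 ± 8.83) and AKR1B15 (8.19 ± 2.13), with AKR1C4 and AKR1D1 under 1. In shSRC1 cells AKR1A1 came first at 2751 ± 238 normalized reads per coding kilobase. AKR1C2 (961 ± 93.9), AKR1E2 (526 ± 34.5), AKR1C1 (319 ± 150.3) and AKR1C3 (145 ± 45.2) followed in that group. AKR1B10 (28.1 ± 26.2), AKR1B1 (21.9 ± 5.27), AKR1B15 (5.72 ± 2.95) and AKR1D1 (1.61) came next, and AKR1C4 had 0 reads. Among neighbours in these orders, the library values of AKR1C3 and AKR1E2 and of AKR1C4 and AKR1D1 overlapped in shNT. In shSRC1 those of AKR1C1 and AKR1C3, of AKR1B10 and AKR1B1 and of AKR1B15 and AKR1D1 overlapped. AKR1D1 and AKR1C4 met at 0 reads in shSRC1 replicate 3. Coding lengths ran from 948 to 1032 bases, but reads also fall in untranslated parts, and the annotated transcripts run from 1409 to 6705 bases, the longest that of AKR1C1. If reads that match several AKR1C genes were left out, the levels of those genes are too low in these orders.

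Among NRF2 and its target genes outside AKR1, 15 of 28, all tested, fell in shSRC1, 1 (TRIM16L) rose and 12 did not pass the test. TRIM16L was not called without shNT replicate 1, shSRC1 replicate 1 or shSRC1 replicate 2. Some fallen genes were also sensitive to the 17 alternative settings described below. ME1 lost its call in 7 of them, GCLM in 5, NFE2L2 in 3 and HMOX1 in 2. Over all tested genes 11.2% fell and 23.2% passed in either direction. The list median was -0.30 on the log2 scale, against -0.0025 over all tested genes. The bile and drug exporters ABCC3 and ABCC2 had log2 fold changes of -1.40 (SE 0.11, limma adjusted p = 5.52e-07) and -1.69 (SE 0.17, limma adjusted p = 7.31e-06). SLC7A11, which imports cystine for glutathione, held 7156, 7674, 9017 and 8939.5 normalized reads in shNT and 3363, 3121, 3938 and 3811 in shSRC1, with no overlap (log2 fold change -1.20, SE 0.10, limma adjusted p = 1.28e-06). UGDH, which makes the sugar donor for glucuronidation, fell by 0.95 and the porphyrin transporter ABCB6 by 0.95 on the log2 scale, with limma adjusted p = 1.58e-06 and 6.42e-06.

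Other genes of that list were picked after their values were seen. NFE2L2, the gene of NRF2 itself, held 5001, 5608, 5599 and 5837 normalized reads in shNT and 3927, 4026, 4924 and 4914 in shSRC1. The groups did not overlap, and within shSRC1 replicates 1 and 2 were the lower ones. Both were the higher ones for AKR1C1, AKR1C2, AKR1C3 and AKR1B10, and any link between NFE2L2 and these genes was not tested. The log2 fold change of NFE2L2 was -0.32 (SE 0.09, limma adjusted p = 0.0272). It missed the threshold without shNT replicate 4 or shSRC1 replicates 1 or 2 (limma adjusted p = 0.0733, 0.0789 and 0.0897). KEAP1, the inhibitor of NRF2, stood at a log2 fold difference of 0.23 (SE 0.10, limma adjusted p = 0.118). NQO1, a quinone reductase widely used as a readout of NRF2, stood at 84046 ± 14777 and 70973 ± 1845 (SD, n = 4 each, limma adjusted p = 0.175). It held 63800 normalized reads in shNT replicate 3 and at least 83312 in the other shNT libraries, and without that replicate its log2 fold change was -0.35 (limma adjusted p = 0.00152).

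Enzymes that share steroid or retinoid substrates with the AKR1 family went both ways. Of 29 tested of 45, 7 rose and 4 fell, the other 18 missed the threshold, and the median was 0.22. The called share was 37.9%, beside 23.2% of all tested genes. CYP26B1, which breaks down retinoic acid, rose from 79.3 ± 17.4 to 262 ± 15.0 normalized reads (SD, n = 4 each), and its log2 fold change was 1.74 (SE 0.17, limma adjusted p = 6.15e-06). ALDH1A3, which makes retinoic acid from retinaldehyde, fell by 1.03 (limma adjusted p = 3.04e-04). CYP19A1, the aromatase that makes estrogens, held 252, 186, 401 and 161 normalized reads in shNT and 118, 124, 123 and 109 in shSRC1, with no overlap and with shNT replicate 3 the highest. Its log2 fold change was -0.98 (SE 0.23, limma adjusted p = 0.00749), and -0.73 without that replicate. The oxidoreductases DHRS2 and HSD17B6 rose by 0.36 and 0.68. Calls in this list numbered 7 in place of 11 without shNT replicate 1, shSRC1 replicate 1 or shSRC1 replicate 2.

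Of 13 tested of 24 genes of prostaglandin synthesis and response, 6 rose, 1 fell and 6 did not pass, with a median of 0.29. The called share was 53.8%, beside 23.2% of all tested genes. PTGS1 and PTGS2, named after their values were seen, did not pass the filter on low values. Their means were 10.2 and 2.54 normalized reads in shNT and 5.48 and 2.05 in shSRC1. PTGES, a prostaglandin E synthase, rose from 309 ± 60.2 to 688 ± 38.1 normalized reads (SD, n = 4 each, log2 fold change 1.17, limma adjusted p = 3.30e-05). The prostaglandin E receptors PTGER4, PTGER3 and PTGER2 rose by 0.73, 0.81 and 1.12 (limma adjusted p = 4.77e-05, 6.17e-04 and 0.00551). PTGR1, which inactivates prostaglandins and leukotrienes, fell by 0.45 (limma adjusted p = 0.0305), a call that was lost without 5 of the 8 single libraries and with no filter on low values. Without shNT replicate 1 or shSRC1 replicate 2, 4 of the genes were called in place of 7.

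Carbonyl reductases, other aldo-keto reductases and enzymes of the polyol and glucuronate pathways moved little. Of 17 tested of 21, 1 rose, 1 fell and 15 did not pass, a share of 11.8% beside 23.2% of all tested genes. AKR7A2, a reductase of succinic semialdehyde, rose by 0.48 (SE 0.13, limma adjusted p = 0.0166) and KCNAB2, a potassium channel subunit built like an aldo-keto reductase, fell by 0.43 (SE 0.09, limma adjusted p = 0.00314). The call of AKR7A2 was lost without shSRC1 replicate 1 (limma adjusted p = 0.0621). For bile acid synthesis, 1 of 8 tested genes of 13 rose, HSD3B7, by 0.33 (SE 0.10, limma adjusted p = 0.0278), a called share of 12.5% beside 23.2% of all tested genes. That call was lost without shSRC1 replicates 1, 2 or 3 (adjusted p = 0.0837, 0.0585 and 0.0573).

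**Figure D3:**
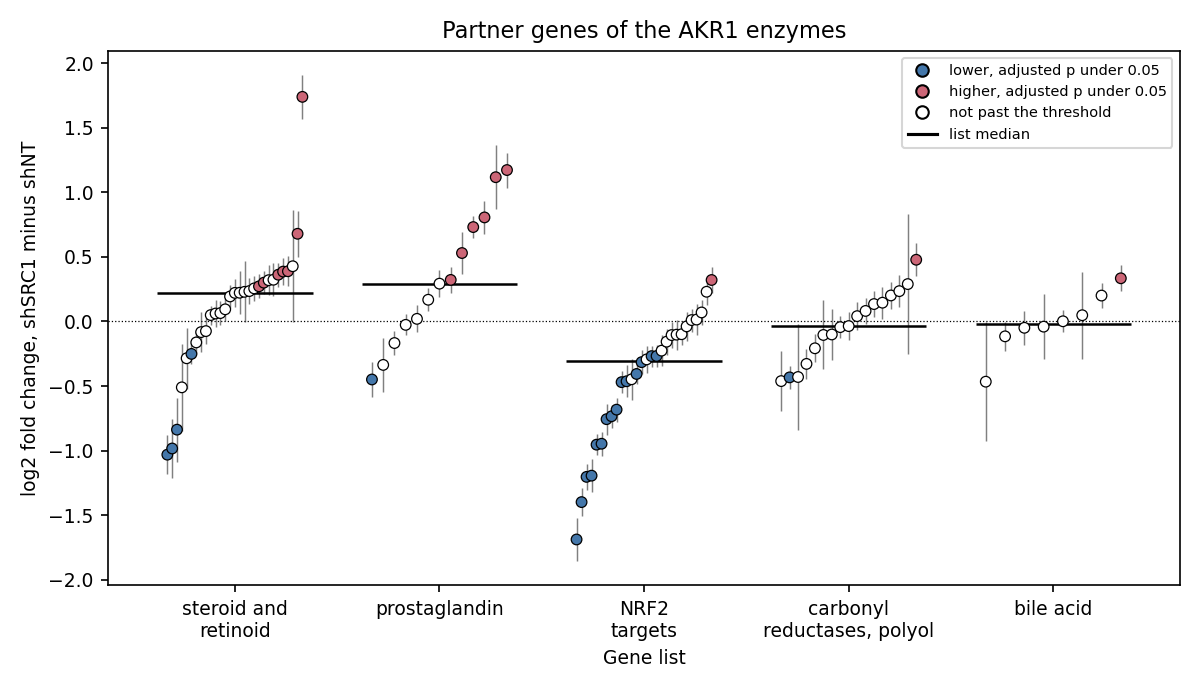
Each point is 1 tested gene of a list (x axis: list, genes sorted by value), with its log2 fold change of shSRC1 minus shNT on log2(value + 1) (y axis) and its SE. Blue (lower) and red (higher) points passed an adjusted p of 0.05, white ones did not, and the line is the list median, lowest for the NRF2 list at -0.30 and highest for the prostaglandin list at 0.29.

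AKR1C1 to AKR1C4 and AKR1E2 lie on chromosome 10, AKR1B1, AKR1B10, AKR1B15 and AKR1D1 on chromosome 7 and AKR1A1 on chromosome 1. Chromosome 10 was already known to hold runs of lower genes in these data, so the tested protein-coding genes beside the AKR1C cluster were examined, by gene order in GENCODE 29 and with AKR1E2 left out as a member. There were 10 before the cluster, up to the chromosome end, and 20 after it. Among these 30 neighbours 9 fell and 1 rose, the other 20 missed the threshold, and 26 had a log2 fold change below 0. Over all tested genes 11.2% fell, and nothing is read from the difference, since this stretch was examined for a run already known. Their median was -0.18, against -0.0025 over all tested genes. The neighbours ranged from -0.81 to 0.86, while AKR1C1, AKR1C2 and AKR1C3 stood at -2.13, -3.01 and -2.44, and AKR1E2 at -0.27 lay inside the range of the neighbours. Without shNT replicate 4 or shSRC1 replicate 2, 5 of the neighbours fell in place of 9.

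The nearest tested neighbours before the cluster, KLF6, PITRM1 and PFKP, had log2 fold changes of -0.03, -0.10 and -0.12 (limma adjusted p = 0.828, 0.355 and 0.345). KLF6 encodes a transcription factor, PITRM1 a mitochondrial protease and PFKP a phosphofructokinase. After the cluster, TUBAL3 had -0.51 (SE 0.58, limma adjusted p = 0.545) on 10.0 ± 5.50 and 6.77 ± 4.32 normalized reads (SD, n = 4 each). The exchange factor gene NET1 fell by 0.38 (SE 0.09, limma adjusted p = 0.00747). CALML5, which encodes a calmodulin-like protein of epithelium, rose by 0.86 (SE 0.25, limma adjusted p = 0.0246), although its groups overlapped. CALML5 missed the threshold when shNT replicate 1, shNT replicate 3, shSRC1 replicate 1 or shSRC1 replicate 2 was left out (adjusted p = 0.0584, 0.0511, 0.0777 and 0.0574).

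Beside the AKR1B genes, 5 of 40 tested neighbours rose and 4 fell, while 31 missed the threshold, with a median of 0.02. The called share of 22.5% was near the 23.2% of all tested genes. On one side of AKR1B1, AKR1B10 and AKR1B15 lay SLC35B4, LRGUK and EXOC4 with log2 fold changes of 0.18, 0.82 and 0.01 (limma adjusted p = 0.105, 0.0549 and 0.965). On the other lay BPGM, AGBL3 and C7orf49 with -0.08, -0.04 and 0.20 (limma adjusted p = 0.658, 0.867 and 0.138). LRGUK passed the threshold without shNT replicate 3 (adjusted p = 0.0147). AKR1B10, at -2.17, lay below the lowest of the 40 neighbours, which stood at -0.80. The AKR1B10 value is uncertain (SE 1.05, not past the threshold) and was -1.18 without shSRC1 replicate 4.

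**Figure D4:**
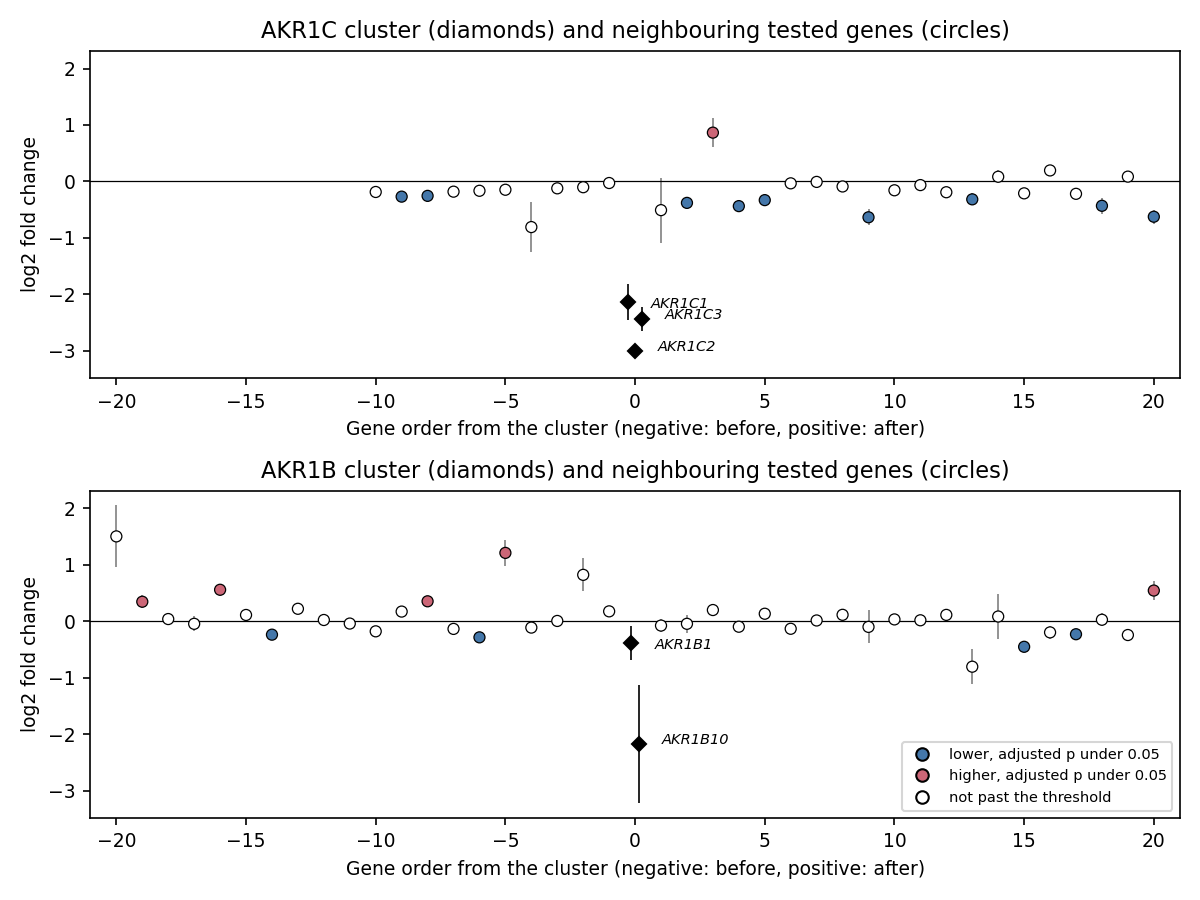
Circles are tested protein-coding neighbours in gene order from the AKR1C cluster (upper panel) or the AKR1B cluster (lower panel), with the log2 fold change of shSRC1 minus shNT (y axis) and its SE; diamonds are the members. Blue (lower) and red (higher) circles passed an adjusted p of 0.05, white ones did not, and the AKR1C genes lie at -2.13 to -3.01, below all 30 circles.

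The genes whose profile over the 8 libraries was most like that of the AKR1C sum were NOTUM, GFRA2, IFI27, UNC13D and ADD3. Likeness was the root-mean-square difference between log2(value + 1) profiles, each centred on its mean, over 13323 genes with a symbol and a mean of at least 50 in both groups. It was 0.18, 0.22, 0.27, 0.37 and 0.41 on the log2 scale, beside 0.14 for AKR1C2, 0.22 for AKR1C3 and 0.45 for AKR1C1, which are parts of the sum. NOTUM, which encodes a Wnt-inactivating enzyme, held 452, 489, 401 and 448 normalized reads in shNT and 71.2, 68.2, 70.0 and 56.8 in shSRC1. GFRA2, a receptor gene for GDNF family ligands, held 1486, 1372, 1175 and 1308 in shNT and 280.1, 278, 207 and 228 in shSRC1, so shSRC1 replicates 1 and 2 were again the higher ones. The interferon-induced gene IFI27 held 574 to 782 normalized reads in shSRC1, with replicate 2 the lowest. A large fall in all 4 shSRC1 libraries dominates this measure, so it mostly picks genes with a fall of like size.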

How the data were processed

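Poly(A)-selected RNA of 8 LY2 libraries, 4 shNT and 4 shSRC1, was sequenced after preparation with an Illumina TruSeq kit, per the labels' protocols. The authors deposited 1 table of 63677 genes whose values are a signal, namely read counts scaled by library size factors. The submitters' processing notes name TopHat2 2.0.12, HTSeq 0.6.1, DESeq2, DESeq and GRCh37. The sources used here do not give the annotation, the counting options or the treatment of strand. The values are whole multiples of 1 step per library, and 100% of them came out whole within 0.001 reads, so reads were recovered. The floor for a count of 0 was 3 reads. Reads carry no molecular identifiers, so it covers counting error only.

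The 19559 genes that reached 10 normalized reads in 4 or more libraries were tested with limma 3.58.1 in R 4.3.3 (mean-variance trend, robust variances) on log2(value + 1). The test is two-sided, the Benjamini-Hochberg adjustment covers all 19559 genes, and calls need an adjusted p below 0.05. This scale can understate or overstate changes of low genes. The count tests edgeR 4.0.16 and DESeq2 1.42.0, run on the recovered reads as alternatives, called 4637 and 5304 genes. Both gave AKR1B10, a low gene, a smaller fall than the main fit did. Other alternatives were TMM and upper-quartile scaling, other filters and pseudocounts, a replicate block and leaving out each library.

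The members, the 5 partner lists and the tests were chosen with earlier results of these data known. Named are all members, other AKR1 rows, NCOA1, up to 5 called genes of each partner list by smallest adjusted p, the 3 nearest tested neighbours on each side of each cluster, and the 5 genes most like the AKR1C sum. Marker genes, NFE2L2, KEAP1, NQO1, PTGS1, PTGS2 and the genes of the NRF2 list whose call was lost in an alternative are named besides. Gene order, transcripts and coding sequences came from GENCODE 29 and promoters from RefSeq, both on GRCh38 and joined by identifier or symbol. Sequences were aligned with Biopython 1.88.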

Additional observations from a re-analysis of the deposited data

How the results depend on the processing

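Over the 17 alternatives, 3 or 4 members were called lower, from which nothing is read since this contrast chose the family. The log2 fold change of the AKR1C sum ran from -2.88 to -2.69, that of AKR1C2 from -3.11 to -2.94, of AKR1C1 from -2.36 to -1.90, of AKR1C3 from -2.59 to -2.27 and of AKR1B10 from -2.76 to -1.18. The additional member was AKR1E2, called without shNT replicate 3, with the replicate block and in edgeR and DESeq2. Leaving out 1 library gave 1450 to 2251 lower genes over the whole table in place of 2194, 7 to 13 calls in the steroid and retinoid list, 4 to 7 in the prostaglandin list, 1 to 3 in the carbonyl reductase list and 0 to 1 in bile acid synthesis. In the same fits 12 to 19 genes of the NRF2 list fell, and there were 5 to 10 lower neighbours of the AKR1C cluster and 2 to 4 of the AKR1B cluster, and with no filter on low values the latter were 2. Sign was followed for the tested members, the called list genes, NQO1, KEAP1, ESR1, the nearest neighbours and the genes most like the AKR1C sum. Among these it changed for 3 neighbours that did not pass the threshold: KLF6 (-0.057 to 0.013 when 1 library was left out), AGBL3 (-0.088 to 0.045) and EXOC4 (-0.038 to 0.038, and also -0.0076 with TMM, -0.0051 in edgeR and -0.0038 in DESeq2). The cause was not tested. No scaling moved the median of all genes by as much as 0.1.

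Groups share replicate numbers, but the labels do not say that a number marks a shared culture or day, so the numbers were not taken as pairs. Deviations of same-numbered libraries correlated at 0.24, -0.01, 0.13 and 0.14 across genes, which does not settle whether they share a culture or day. Of the 8 libraries, 6 correlated best with the library of their own number, and shNT replicate 2 and shSRC1 replicate 2 did not. With the replicate block 3290 genes were higher and 3108 lower, in place of 2344 and 2194, and 4 members were called lower in place of 3. At this depth AKR1C4, AKR1D1 and AKR1B15 cannot be compared between groups.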

Other observations

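Another 17 rows of the table carry AKR1 symbols, those of pseudogenes and of AKR1CL1. None passed the filter on low values, 11 had 0 reads in every library and 6 had at least 1. AKR1C6P had the most, with 21 reads summed over shNT and 11 summed over shSRC1. AKR1B1P1 had 3 and 7 reads. AKR1B1P4, AKR1B10P1, AKR1C5P and AKR1D1P1 had 1 read each. Few reads of the family were thus assigned to these copies.

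AKR7L, a relative of AKR7A2 and AKR7A3, held 34.1 to 78.0 normalized reads in shNT and 41.8, 70.0, 36.4 and 215 in shSRC1, so 1 library, replicate 4, stood far above the other 7. This gene was chosen after its values were seen.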
